A study of Mus musculus with 23 samples.

Results

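PyMT tumors are mammary carcinomas of mice that carry the polyoma virus middle T oncoprotein as a transgene, which in the common form of this model is expressed in mammary epithelium from the promoter of mouse mammary tumor virus. The mice were female and on a C57BL/6 background. Tumors of PyMT WT mice, dissociated before RNA was isolated, served as controls in 2 separate experiments. These control tumors, 9 of the 23 libraries of the series, were compared with each other here. The 5 IgG tumors came from mice with human IgG1 isotype control at 100 µg, given once a week for 5 weeks after the first tumor had reached 0.6 cm. The 4 WT_IgG tumors came from mice with isotype IgG, listed among the reagents as polyclonal Armenian hamster IgG, at 500 µg first and 200 µg later, also weekly for 5 weeks, but starting at an age of 13 weeks. Both cohorts carry WT Il1f10, the gene of the IL-1 family cytokine IL-38, and neither received an agent against IL-38. The isotype antibody, its dose, the rule for starting and the experiment differ together, so they cannot be told apart. Any difference in dissociation between the experiments was not tested. Libraries were assigned to the cohorts by their labels, and all genes with a mean of at least 5 normalized counts over the 9 libraries entered the comparison.

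The mammary gland consists of luminal and basal epithelium that grows within a pad of fat, and a carcinoma of the gland grows into this fat. White adipocytes store triglyceride in 1 large droplet, coat it with perilipins and CIDE proteins, and secrete hormones such as adiponectin and leptin. RNA of a dissociated mammary tumor can therefore hold transcripts of carcinoma cells, of leukocytes and vessels, and of fat.

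The depth, as reads on genes, was 12874735 to 14640084 in IgG tumors and 11387847 to 13022512 in WT_IgG tumors. A listed 0 allows up to 3 counts, which is 0.205 to 0.263 CPM (reads scaled to a common library total) in these libraries, for counting error only. Reads on mitochondrially encoded genes were 7.12% to 8.31% of the total in IgG and 4.78% to 6.05% in WT_IgG tumors, so the cohorts did not overlap in this share. Of the variance over all tested genes, 21.7% lay between the cohorts. The median distance between 2 libraries (root mean square of log2 differences) was 0.889 between cohorts and 0.864 within a cohort. IgG 5 stood apart on the first principal component, at −110.7 against −20.8 to 51.6 for the other 8 libraries. The summed level of the luminal epithelium list was 30290 to 136700 normalized counts in IgG and 70380 to 106100 in WT_IgG tumors, so all 9 libraries held epithelial transcripts. Il1f10 had 0 reads in each of the 9 libraries.

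To define how far controls of separate experiments differ in this model, 16099 genes were tested, of which 16 were called at an adjusted p under 0.05 in limma (0.0994% of the genes tested). WT_IgG tumors were higher for 15 of them (0.0932%) and lower for 1, Fuca2 (0.00621%). Of the 16 called genes, 6 belonged to a list of 18 adipocyte genes. At an unadjusted p under 0.05, 2994 genes stood out (18.6%), with 1527 higher (9.49%) and 1467 lower (9.11%) in WT_IgG tumors. All 4 WT_IgG tumors lay above all 5 IgG tumors for 574 genes (3.57%), and below them for 556 (3.45%), and the 16 called genes were all among these. The count of calls moved with the test, as edgeR called 11 genes (0.0683%), all of them among the 16, whereas DESeq2 called 742 (4.61%), including the 16, of which 351 were higher. In limma it was 0 without WT_IgG 1, without WT_IgG 2 or without WT_IgG 4 (1891 to 3041 genes at an unadjusted p under 0.05), 3 without WT_IgG 3, 5 without IgG 2, 8 without IgG 4 and 45 without IgG 1. The plot of fold changes against p shows the called genes.

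**Figure D1:**
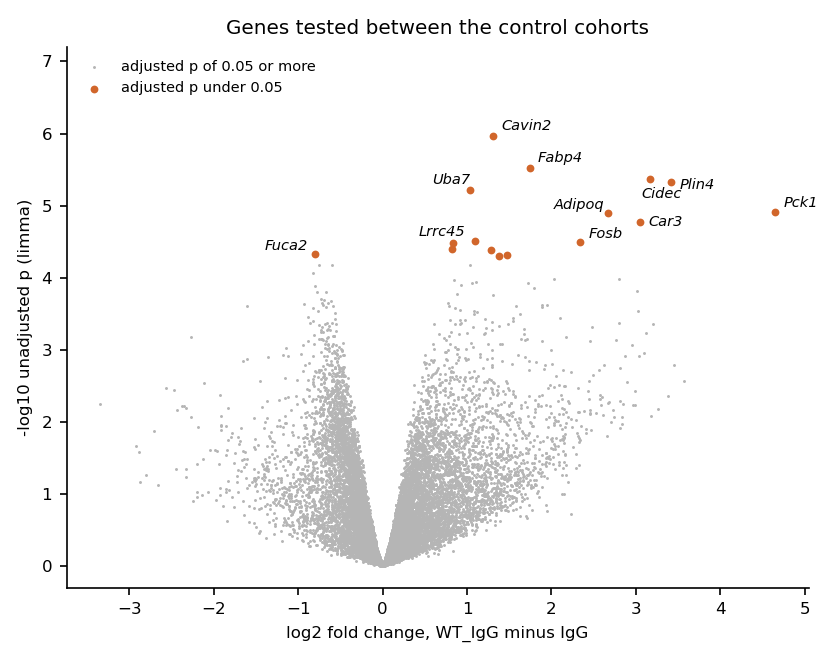
Each point is 1 of 16099 genes, with the log2 fold change of WT_IgG over IgG tumors on the x axis and −log10 of the unadjusted limma p on the y axis. The 16 called genes are orange, 15 of them right of 0, and Pck1 lies farthest out at 4.65.

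The genes that rose in WT_IgG tumors were led by adipocyte genes, with fold changes of 1.74 to 4.65 on the log2 scale for the 6 that were called. They cover the droplet coat (Cidec, Plin4), fatty acid transport within the cell (Fabp4), the enzymes Pck1 and Car3, and the secreted hormone adiponectin (Adipoq). The median of the 18 adipocyte genes tested was 2.74, beside 0.02 over all genes tested. In RNA of a dissociated tumor, fewer cells of a type, fewer recovered by dissociation and less RNA per cell cannot be told apart.

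Cidec, a protein that fuses lipid droplets, was at 11.3, 24.8, 15.1, 11.1 and 8.58 normalized counts in IgG 1 to 5, and at 148, 168, 58.2 and 181 in WT_IgG 1 to 4. The lowest WT_IgG tumor, WT_IgG 3, was still above the highest IgG tumor. The log2 fold change was 3.17 (SE 0.41, limma adjusted p = 0.0192). Plin4, a perilipin on the surface of droplets, was at 47.2, 44.1, 15.1, 11.1 and 18.1 in IgG tumors and at 166, 317, 201 and 410 in WT_IgG tumors. Its log2 fold change was 3.42 (SE 0.44, limma adjusted p = 0.0192). For both genes all 4 WT_IgG tumors were high, and for Plin4 IgG 1 and IgG 2 were above the other 3 IgG tumors.

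Fabp4, which carries fatty acids in adipocytes and also in macrophages and endothelium, was at 597, 282, 375, 321 and 410 normalized counts in IgG tumors and at 1149, 1333, 1034 and 1728 in WT_IgG tumors. The means were 397 ± 122 (SD, n = 5) and 1311 ± 304 (SD, n = 4). Its log2 fold change of 1.74 (SE 0.22, limma adjusted p = 0.0192) was the smallest of the 6. The cohorts did not overlap, and IgG 1 was the nearest IgG tumor.

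Pck1, the enzyme that makes phosphoenolpyruvate and serves glycerol synthesis in fat, was at 11.3, 6.44, 4.45, 0.921 and 0 normalized counts in IgG tumors. In WT_IgG tumors it was at 115, 107, 80.6 and 92.7. IgG 4 held 1 read and IgG 5 none, so that the fitted log2 fold change of 4.65 (SE 0.66, limma adjusted p = 0.0293) rests on values near the floor in these libraries. Adipoq was at 120, 80.9, 90.0, 40.5 and 31.4 in IgG tumors and at 380, 621, 269 and 475 in WT_IgG tumors, with a log2 fold change of 2.67 (SE 0.38, limma adjusted p = 0.0293). Car3, a carbonic anhydrase abundant in fat, liver and muscle, was at 514, 352, 330, 226 and 80.1 in IgG tumors and at 2970, 2691, 1219 and 2066 in WT_IgG tumors. Its log2 fold change was 3.05 (SE 0.45, limma adjusted p = 0.0335). IgG 5 was the lowest library for each of these 3 genes. Without IgG 5 the fold changes were 4.15 for Pck1, 2.42 for Adipoq and 2.63 for Car3.

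The bases before the start site of the called adipocyte genes are shown because these genes moved together. The set of RefSeq promoters used here, on GRCm38.p6, held an entry for 4 of the 6 genes. The 250 bases 5′ of the start are printed, on the gene's own strand, with matches in capitals. The motifs searched on both strands were the CCAAT box (CCAAT), a C/EBP type core (TTGCNNAA), a cyclic AMP response type element (TTACGTCA) and a direct repeat bound by nuclear receptors (AGGTCA, any 1 base, AGGTCA). No motif overlapped another in the bases printed.
Adipoq, chr16:23146286-23146535, plus strand: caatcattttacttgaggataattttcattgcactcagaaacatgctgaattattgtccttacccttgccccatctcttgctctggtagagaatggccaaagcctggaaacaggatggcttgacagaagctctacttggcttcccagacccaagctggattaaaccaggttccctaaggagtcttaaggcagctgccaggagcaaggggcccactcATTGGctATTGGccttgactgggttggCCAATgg
Plin4, chr17:56109783-56110032, minus strand: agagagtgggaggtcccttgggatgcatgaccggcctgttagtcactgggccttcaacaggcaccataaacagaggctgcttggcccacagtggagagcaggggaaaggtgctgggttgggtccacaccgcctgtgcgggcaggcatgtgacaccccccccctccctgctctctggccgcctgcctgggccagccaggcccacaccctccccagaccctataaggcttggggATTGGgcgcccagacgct
Cidec, chr6:113434765-113435014, minus strand: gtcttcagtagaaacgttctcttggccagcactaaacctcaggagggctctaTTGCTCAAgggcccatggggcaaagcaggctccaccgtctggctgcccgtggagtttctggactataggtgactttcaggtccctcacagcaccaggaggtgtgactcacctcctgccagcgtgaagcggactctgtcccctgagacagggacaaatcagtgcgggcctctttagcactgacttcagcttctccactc
Pck1, chr2:173152823-173153072, plus strand: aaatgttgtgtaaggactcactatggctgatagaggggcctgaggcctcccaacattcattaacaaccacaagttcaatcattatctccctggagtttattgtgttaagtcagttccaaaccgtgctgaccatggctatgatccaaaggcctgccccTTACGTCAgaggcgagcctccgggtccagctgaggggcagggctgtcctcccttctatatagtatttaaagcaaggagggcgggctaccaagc
A CCAAT box was found in Adipoq (3 matches) and Plin4 (1 match), as in 33.8% of all 32851 promoter entries. The C/EBP type core was found in Cidec (9.56% of entries) and the cyclic AMP response type element in Pck1 (0.447% of entries). The direct repeat, found in 0.0335% of entries, was in none of the 4. The entry of a further Cidec start held no match. The matches are a description of these windows.

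Of the remaining 12 genes of the adipocyte list, 0 were called in limma and edgeR, whereas DESeq2 called 11 of the 18 genes of the list. At an unadjusted p under 0.05, 12 of the 18 genes were higher and 1 lower, beside 9.49% and 9.11% of all genes. All 4 WT_IgG tumors lay above all 5 IgG tumors for 11 of the 18, beside 3.57% of all genes. Plin1, the perilipin that gates lipolysis, was at 15.1, 24.8, 13.4, 4.61 and 5.72 normalized counts in IgG tumors and at 89.6, 99.9, 40.3 and 118 in WT_IgG tumors. Cfd, the complement factor adipsin, was at 244, 402, 727, 124 and 67.7 against 1605, 2700, 2387 and 1113, and Retn, the hormone resistin, at 21.7, 27.6, 36.5, 11.1 and 0 against 140, 161, 159 and 91.7. The cohorts did not overlap in any of these 3 genes, with adjusted p of 0.0727, 0.0803 and 0.111 in limma. Adrb3, the β3-adrenergic receptor of fat, was at 0 to 13.2 normalized counts in IgG and at 20.4 to 56.4 in WT_IgG tumors, also without overlap. Leptin (Lep) reached 109 normalized counts in WT_IgG 4, but only 5.98 to 15.1 in the other 3 WT_IgG tumors, and 0 to 7.37 in IgG tumors. The uncoupling protein of brown fat, Ucp1, was at 69.7 in WT_IgG 2 and at 8.95 or less in the other 8 libraries. Lipe, the hormone-sensitive lipase, was at 269 to 363 in IgG and 363 to 580 in WT_IgG tumors, so that the cohorts met without overlap (log2 fold change 0.51). The lipase Pnpla2, the acyl-CoA synthetase Acsl1, Thrsp and Cidea overlapped between the cohorts, with log2 fold changes of −0.17 to 0.59.

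Lpl, the lipase that releases fatty acids from lipoproteins, went the other way. It was at 30892, 21603, 18781, 19219 and 26850 normalized counts in IgG tumors and at 15733, 20164, 15188 and 11872 in WT_IgG tumors, with a log2 fold change of −0.57. This gene is also expressed by macrophages and other cells, and it held 67.9% to 85.8% of the summed level of the list in IgG and 48.5% to 59.0% in WT_IgG tumors. With Lpl, the summed level of the list overlapped, at 24220 to 36800 and 24460 to 34170 normalized counts. Without Lpl, a choice made after its values were seen, the sum was 4432 to 8874 in IgG and 10560 to 14010 in WT_IgG tumors. The plot of the adipocyte list shows that the leading genes were separated by cohort, and that those at the right end were not.

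**Figure D2:**
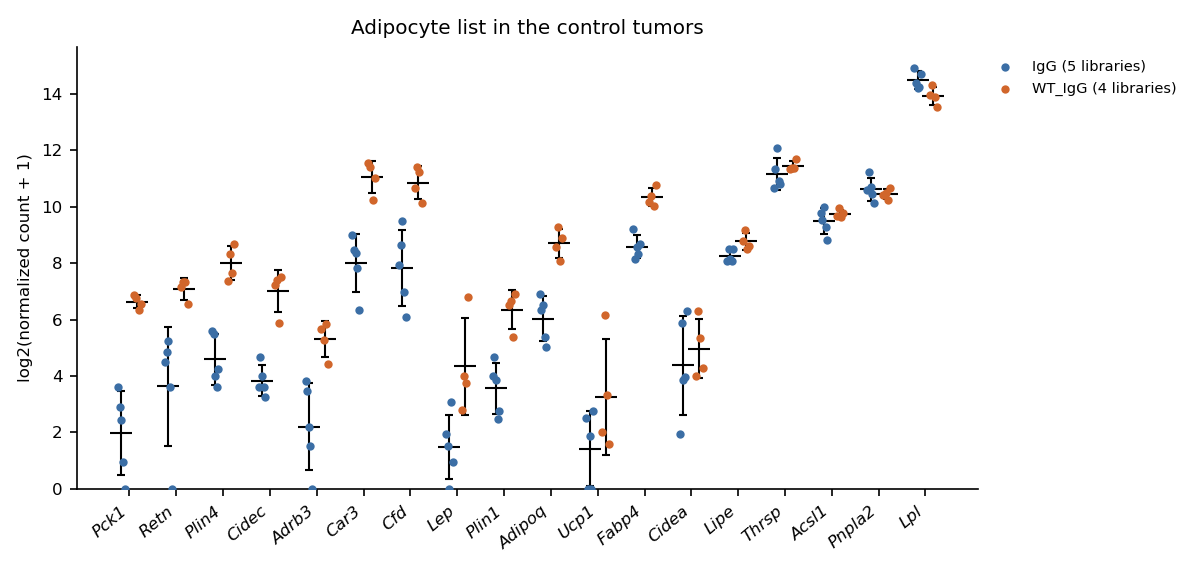
The 18 adipocyte genes are ordered by fold change on the x axis, with log2(normalized count + 1) on the y axis, for 5 IgG (blue) and 4 WT_IgG (orange) tumors. Points are libraries and bars show mean and SD; Pck1, Plin4, Cidec, Car3, Adipoq and Fabp4 were called, and Lpl lies lower in WT_IgG tumors.

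Of the 10 called genes outside the adipocyte list, 1 was Fosb of the immediate early list, and the other 9 were in none of the 45 lists. Cavin2, a coat protein of caveolae, which are abundant in adipocytes and endothelium, had the lowest p of all genes. It was at 525, 385, 412, 380 and 546 normalized counts in IgG tumors and at 1229, 1033, 1008 and 1148 in WT_IgG tumors. The log2 fold change was 1.31 (SE 0.15, limma adjusted p = 0.0175). Of the endothelial list, by comparison, 0 of 17 genes were called in limma, edgeR or DESeq2. There were 3 at an unadjusted p under 0.05, beside 18.6% of all genes. Its median log2 fold change was 0.05, and it changed sign without IgG 5 (−0.13), WT_IgG 4 (−0.07) or WT_IgG 3 (−0.01) and reached 0.15 without IgG 4.

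Fosb, an AP-1 transcription factor induced within minutes of a stimulus, was at 19.8, 25.7, 18.7, 39.6 and 16.2 normalized counts in IgG tumors and at 61.7, 188, 118 and 150 in WT_IgG tumors. WT_IgG 1 was the lowest of its cohort and still above IgG 4. The log2 fold change was 2.34 (SE 0.37, limma adjusted p = 0.0486). It was the only called gene among 24 tested immediate early genes, whose median was 0.15, or 0.23 without IgG 4. At an unadjusted p under 0.05, 9 of the 24 were higher and 2 lower, beside 9.49% and 9.11% of all genes. Fos, which pairs with Jun proteins, was at 275 to 499 normalized counts in IgG and 558 to 1104 in WT_IgG tumors, and Egr1, a zinc finger factor of the same response, at 798 to 1067 and 1120 to 1563. Neither passed the threshold (adjusted p = 0.0912 and 0.111 in limma), although the cohorts did not overlap.

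Uba7, the E1 enzyme that activates ISG15, was at 634, 742, 545, 629 and 495 normalized counts in IgG and at 1225, 1121, 1237 and 1376 in WT_IgG tumors. This was a log2 fold change of 1.03 (SE 0.14, limma adjusted p = 0.0197). Lrrc45, a protein that links centrioles, was at 198 to 302 in IgG and 523 to 572 in WT_IgG tumors, with a log2 fold change of 1.09 (SE 0.17, limma adjusted p = 0.0486). The 4 WT_IgG tumors differed little from each other in both genes.

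Sh2b1, an adaptor of insulin and leptin receptor signaling, was at 447 to 624 normalized counts in IgG and 916 to 1097 in WT_IgG tumors (log2 fold change 0.82, adjusted p = 0.0497 in limma). Mapk8ip1, a scaffold of the JNK pathway, was at 204 to 487 and 723 to 934 (1.38, adjusted p = 0.0497). Tanc2, a scaffold of synapses, was at 1151 to 1465 and 1906 to 2692 (0.83, adjusted p = 0.0486), and Cplx2, which acts on vesicle fusion, at 55.3 to 102 and 166 to 197 (1.29, adjusted p = 0.0497). The pseudogene Slc2a4rg-ps was at 53.4 to 92.1 and 134 to 255 (1.48, adjusted p = 0.0497), and its reads could belong to a related gene. None of these 5 genes overlapped between the cohorts, and all lay close to the threshold.

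**Figure D3:**
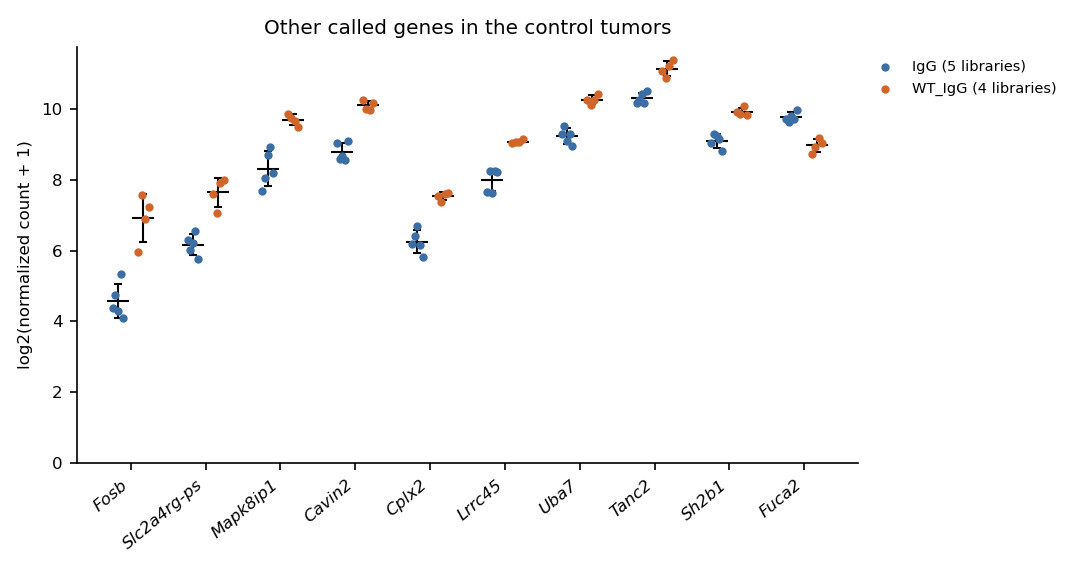
The 10 called genes outside the adipocyte list, with log2(normalized count + 1) on the y axis, for 5 IgG (blue) and 4 WT_IgG (orange) tumors; points are libraries and bars show mean and SD. The cohorts do not overlap for any gene, and Fuca2 is the gene with lower values in WT_IgG tumors.

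Fuca2, a secreted fucosidase, was the only gene called in the other direction. It was at 847, 792, 893, 850 and 1012 normalized counts in IgG and at 427, 483, 587 and 527 in WT_IgG tumors. It fell by 0.80 on the log2 scale (SE 0.13, limma adjusted p = 0.0497), and this call was lost under TMM, quantile normalization, edgeR and most omissions of 1 library, with fold changes of −0.87 to −0.72. The next 9 genes by p among those lower in all 4 WT_IgG tumors did not pass (adjusted p = 0.0567 to 0.0811 in limma), with log2 fold changes from −0.82 to −0.60. Among these were Tmx1 and Tmx2, thioredoxin-like proteins of the endoplasmic reticulum membrane, Dad1 and Tmem258, subunits of the oligosaccharyltransferase that glycosylates nascent proteins, and Reep3, which shapes the same membrane. Tmx1 was at 2442 to 3523 normalized counts in IgG and 1531 to 1846 in WT_IgG tumors, and Dad1 at 2072 to 2962 and 1453 to 1786. The others were Tomm20, a receptor of mitochondrial import, Ctdnep1, a phosphatase of the nuclear envelope, Tmem104, and Id2, an inhibitor of helix-loop-helix factors.

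Outside the adipocyte and immediate early lists, 0 genes were called in the other 43 lists by limma or by edgeR, and DESeq2 called at most 9 members in any of these lists. Their medians are given as a description beside 0.02 over all genes tested. Counts at an unadjusted p under 0.05 stand beside 9.49% of all genes higher and 9.11% lower. The medians of 4 cell type lists were about as high as each other and below that of the adipocyte list: T cells 1.09, basal and myoepithelial cells 1.03, cytotoxic lymphocytes 0.98, and B and plasma cells 0.98. At an unadjusted p under 0.05, 6 of 12 basal genes were higher, 4 of 18 T-cell genes, 3 of 11 cytotoxic genes, and 4 of 13 B-cell and plasma-cell genes with 1 lower. Without IgG 5 the medians were 0.71 for T cells, 0.77 for basal cells, 0.36 for cytotoxic lymphocytes and 0.90 for B and plasma cells, and without WT_IgG 4 the T-cell median was 0.69. The summed level of the T-cell list was 398 to 868 normalized counts in IgG and 678 to 1431 in WT_IgG tumors, with overlap.

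Among single markers, Lum, a matrix proteoglycan of fibroblasts, was at 173, 192, 273, 313 and 78.1 normalized counts in IgG and at 518, 485, 454 and 993 in WT_IgG tumors. The cohorts did not overlap, and the adjusted p was 0.0938 in limma. The fibroblast list had a median of 0.60, which was 0.38 without IgG 5 and 0.39 without WT_IgG 4. At an unadjusted p under 0.05, 9 of its 22 genes were higher and 1, the fibronectin gene Fn1, was lower. Fn1 was at 4479 to 5236 normalized counts in IgG and 3052 to 4257 in WT_IgG tumors, without overlap (adjusted p = 0.119 in limma). Aldh1a3, a retinal dehydrogenase of luminal progenitors, was at 41.9 to 118 and 160 to 321, and Cxcl13, the chemokine that attracts B cells, at 22.6 to 65.3 in WT_IgG and lower in every IgG tumor. Both were separated by cohort, with adjusted p of 0.0759 and 0.0912 in limma. The luminal epithelium list had 17 of 18 members higher, 6 of them at an unadjusted p under 0.05. Its median was 0.43, which was 0.26 without IgG 5 and 0.72 without IgG 3. Skeletal muscle, at a median of −0.23, ranged from −0.96 without IgG 5 to 0.78 without WT_IgG 1 and was also above 0 without IgG 3 (0.22) or IgG 4 (0.21). It was −0.77 without IgG 1, −0.68 without WT_IgG 3 or WT_IgG 4, −0.45 without WT_IgG 2 and −0.07 without IgG 2. Its summed level overlapped, at 277 to 2577 and 252 to 1697 normalized counts.

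Interferon-stimulated genes, which limit viral replication and present antigen, had 25 of 27 members higher in WT_IgG tumors, with a median of 0.47. At an unadjusted p under 0.05, 14 of the 27 were higher, beside 9.49% of all genes. DESeq2 called 9 of the 27, beside 4.61% of all genes. Oas2, a sensor of double-stranded RNA, was at 288, 384, 171, 248 and 112 normalized counts in IgG and at 747, 427, 696 and 675 in WT_IgG tumors. Gbp3, a guanylate-binding GTPase, was at 203 to 331 and 436 to 556, and Iigp1, a GTPase against intracellular pathogens, at 638 to 1581 and 1970 to 3150. The cohorts did not overlap for these 3 genes or for 7 others of the list, beside 3.57% of all genes separated in this direction. None of the 27 passed (lowest adjusted p = 0.0817 in limma). IgG 5 had the lowest value of all 3, and without it the median of the list was 0.28. The MHC class I list, of the pathway that shows peptides to CD8+ T cells, had a median of 0.40 with 6 of 14 members higher at an unadjusted p under 0.05.

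Mitosis genes had 21 of 22 members lower in WT_IgG tumors, with a median of −0.55. At an unadjusted p under 0.05, 13 of the 22 were lower, beside 9.11% of all genes. Plk1, a kinase of mitotic entry and spindle assembly, was at 963, 1240, 1183, 1244 and 1997 normalized counts in IgG and at 754, 669, 721 and 649 in WT_IgG tumors (adjusted p = 0.0861 in limma). DNA replication genes had 23 of 26 members lower, with a median of −0.38. At an unadjusted p under 0.05, 10 of the 26 were lower and 1 was higher. Cdc6, which loads the replicative helicase, was at 156 to 323 and 90.4 to 122. IgG 5 was the highest library for both genes, and without it the medians were −0.33 for mitosis and −0.20 for DNA replication.

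The glycolysis and hypoxia list had a median of −0.47, with 26 of 30 members lower. At an unadjusted p under 0.05, 13 of the 30 were lower, beside 9.11% of all genes. Hk2, the hexokinase of tumors, was at 812, 820, 1254, 675 and 1085 normalized counts in IgG and at 577, 666, 624 and 470 in WT_IgG tumors. Ankrd37, a hypoxia-induced gene, was at 19.3 to 57.0 and 1.99 to 21.5, so that WT_IgG 3 overlapped with IgG 2. None of the 30 passed in limma, and DESeq2 called 7, beside 4.61% of all genes. Mitochondrially encoded genes, which are made from a genome of their own, had 7 of 8 members lower, with a median of −0.45, which was −0.30 without WT_IgG 1. Nuclear genes of the same respiratory complexes had a median of −0.11 over 79 members, or −0.06 without WT_IgG 4.

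Macrophage genes had 12 of 15 members lower, with a median of −0.23 and log2 fold changes from −0.66 to 1.98. At an unadjusted p under 0.05, 6 of the 15 were lower and 2 higher, beside 9.11% and 9.49% of all genes. Lipid-associated macrophage genes had 12 of 14 members lower, with a median of −0.42 and 6 lower at an unadjusted p under 0.05. Trem2, a lipid receptor of lipid-associated macrophages, was at 3023, 2857, 2289, 2392 and 3318 normalized counts in IgG and at 1727, 2280, 1720 and 1364 in WT_IgG tumors. The highest WT_IgG value lay just below the lowest IgG value (adjusted p = 0.111 in limma). The summed level of the lipid-associated list was 272000 to 335900 in IgG and 174500 to 277700 in WT_IgG tumors. Neutrophil genes had 12 of 15 members lower, with a median of −0.71, or −0.34 with only genes at a mean of at least 20. At an unadjusted p under 0.05, 5 were lower and 1, Ltf, was higher (log2 fold change 1.58). The summed level of this list overlapped, at 27970 to 55370 normalized counts in IgG and 33450 to 39330 in WT_IgG tumors. S100a8, a calcium-binding protein abundant in neutrophils, was at 479 to 2068 and 255 to 579, which overlapped. The hemoglobin gene Hbb-bs, a marker of red blood cells in the tissue, was at 393, 4065, 7276, 3824 and 8249 against 1222, 855, 336 and 375, where IgG 1 was as low as WT_IgG tumors. Of the 5 red blood cell genes tested, 3 were lower and 2 higher, among them the hemoglobin gene Hba-a1 (log2 fold change 0.53). The median of this list was −0.39, and it ranged from −1.59 without IgG 1 to 0.27 without IgG 3. The part of these cell types in the other differences between the cohorts was not tested.

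**Figure D4:**
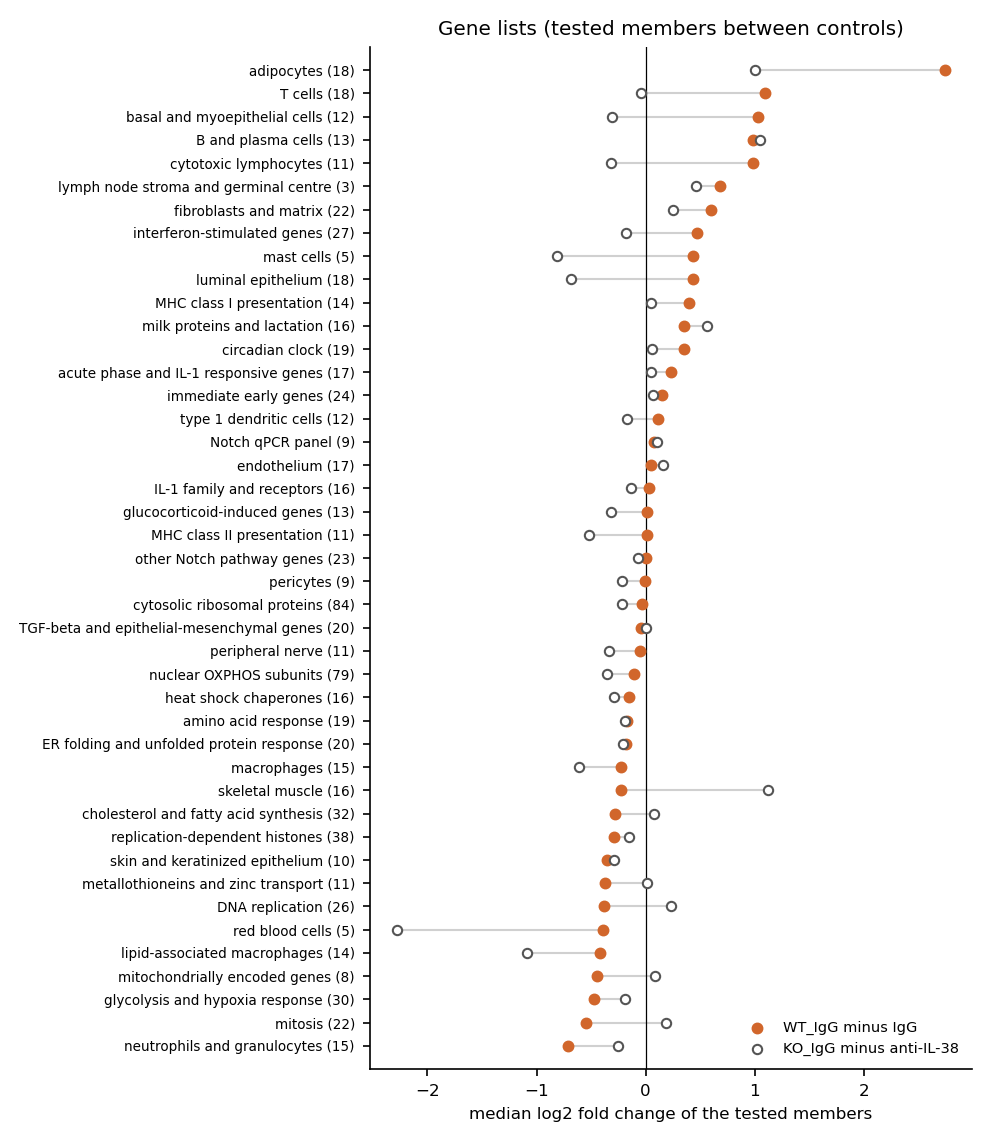
Each row is a gene list with the number of tested members in brackets, and the x axis is the median log2 fold change. Orange points compare WT_IgG with IgG tumors, and open points KO_IgG with anti-IL-38 tumors; the adipocyte list has the highest orange point, at 2.74, and an open point at 1.00, below those of skeletal muscle (1.12) and of B and plasma cells (1.05).

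Notch genes were the readout for which the study measured these tumors by qPCR, so they were compared singly. Heyl, a target of Notch in vascular cells, was at 21.7, 23.0, 13.4, 35.9 and 18.1 normalized counts in IgG and at 87.6, 59.4, 43.0 and 52.0 in WT_IgG tumors. The cohorts did not overlap, and the difference was 1.41 on the log2 scale (p = 0.0159 in an exact two-sided permutation, the smallest that 5 against 4 allow, and 0.159 adjusted over 10 genes). In limma its adjusted p over all genes was 0.108. The ligand Dll1 was at 29.4 to 92.1 and 52.8 to 104, with a difference of 0.22 (exact permutation test, p = 0.619). The ligand Jag1 differed by 0.48 (exact permutation test, p = 0.111) and Dll4 by 0.37 (exact permutation test, p = 0.333). The target Hes1 differed by −0.18, and the receptors Notch1 to Notch4 by −0.15 to 0.08. These values overlapped between the cohorts. Xcl1, the chemokine that attracts type 1 dendritic cells, was at 2.86 to 16.9 and 11.6 to 16.9 (exact permutation test, p = 0.333). Adjusted over the 10 genes, the p of the other 9 were 0.555 to 0.857 in these exact tests. The 23 other Notch pathway genes tested had a median of 0.00. At an unadjusted p under 0.05, 2 were higher and 3 lower, beside 9.49% and 9.11% of all genes.

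The same pair of experiments was compared in 10 libraries that the controls do not include, which are 6 anti-IL-38 tumors of the first and 4 KO_IgG tumors of the second. There the experiment and the means of inhibiting IL-38 (an antibody, or knockout of Il1f10) go together and cannot be told apart, so values are only set side by side. KO_IgG 4 stood apart from the other 18 libraries of the table, with 11.3% of its reads on the transcript Gm42418 and 1.46% on processed pseudogenes. Of 16448 genes tested, 89 were called in limma (0.541%), 48 higher (0.292%) and 41 lower (0.249%) in KO_IgG tumors, and 0 of these were among the 16 called between controls. There were 11 calls without KO_IgG 4, 2 without KO_IgG 1, 649 without KO_IgG 3, and 2 to 37 without any 1 of the anti-IL-38 tumors.

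All of the 16 genes called between controls had the same sign in these libraries, and 7 had an unadjusted p under 0.05, beside 23.0% of all genes tested there. Without KO_IgG 4, 4 of the 16 had such a p. The share of all genes with the same sign was not counted, but the fold changes correlated over all genes (Spearman's rho 0.438). Of the genes called with IL-38 inhibited, 86 were tested between controls, and 64 of these had the same sign there. Pck1 was at 0 to 68.3 normalized counts in anti-IL-38 and 11.3 to 79.0 in KO_IgG tumors (log2 fold change 2.30, and 1.90 without KO_IgG 4). Car3 was at 31.2 to 1803 and 501 to 2042 (2.12, and 1.85 without it), and Cidec at 0 to 133 and 17.4 to 75.8 (2.18, and 1.99). Among the anti-IL-38 tumors, anti-IL-38 4 was the highest in these 3 genes, and the groups overlapped. The median of the adipocyte list was 1.00, or 0.94 without KO_IgG 4, with 3 of its genes higher at an unadjusted p under 0.05 (10.7% of genes) and 1 lower (12.3%).

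Genes outside the adipocyte list were also set side by side. Slc2a4rg-ps was at 23.6 to 111 normalized counts in anti-IL-38 and 133 to 344 in KO_IgG tumors, a log2 fold change of 2.01 (adjusted p = 0.0504 in limma). Mapk8ip1 had a log2 fold change of 0.80 there, Lrrc45 0.80, and Sh2b1 0.73. Fuca2 had −0.49, or −0.31 without KO_IgG 4, and Fosb 0.23, or 0.46 without it. Among the genes lower in WT_IgG tumors that did not pass, Tmx1 had −0.76 in both comparisons and Dad1 −0.73 and −0.72. Tomm20 had −0.82 between controls and 0.07 here. The medians of the mitosis list (0.19), interferon-stimulated genes (−0.18) and luminal epithelium (−0.68) were of the opposite sign to the controls. Lipid-associated macrophages had −1.09, or −0.51 without KO_IgG 4. Across 15753 genes tested in both, which are not independent replicates and share the experiment and the authors' scaling, Pearson's r of the fold changes was 0.395 and Spearman's rho 0.438. Without KO_IgG 4, r was 0.351.

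**Figure D5:**
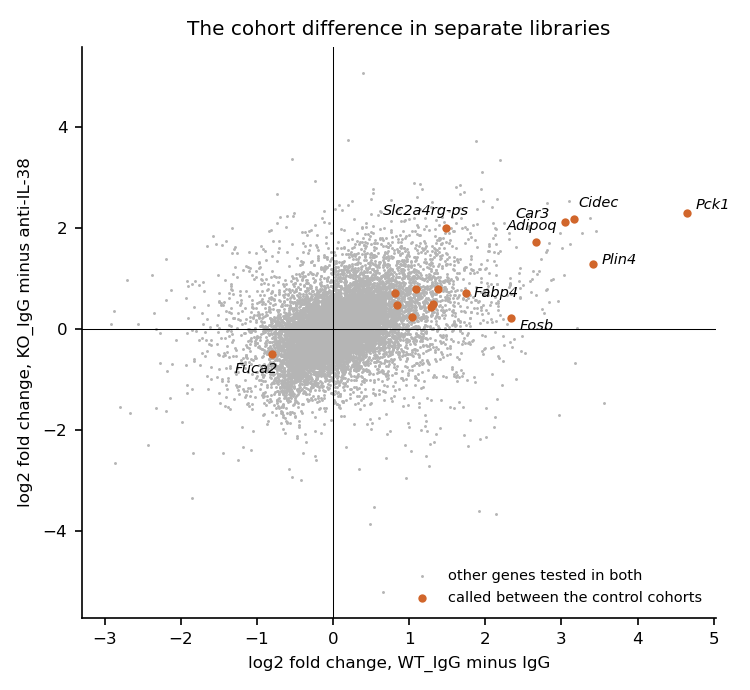
Each point is a gene tested in both comparisons, with the log2 fold change of WT_IgG over IgG tumors on the x axis and of KO_IgG over anti-IL-38 tumors on the y axis. The 16 genes called between controls are orange, and all have the same sign on both axes. Over all 15753 genes shown, Spearman's rho was 0.438.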

How the data were processed

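RNA of dissociated PyMT tumors was sequenced with QuantSeq, which reads the 3′ end of mRNA, as single reads of 75 cycles. The authors used the QuantSeq pipeline of BlueBee Genomics per their methods, and the submitters' processing notes name STAR, HTSeq, DESeq2 and the build GRCm39, with no versions. The deposited values are a signal in the form of read counts divided by 1 size factor per library, called normalized counts, in a table of 19 libraries, of which all columns were used. A second table, of the anti-γδ TCR experiment, was not used. Gene names were taken from GENCODE M21 for 47224 of 47643 identifiers, and because that annotation is on GRCm38, coordinates are given only for the promoter sequences, which are RefSeq's on GRCm38.p6.

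Values were whole multiples of 1 read for 100% of entries (tolerance 0.0001%), which gave back the reads and the depth; in WT_IgG 1 the value of 1 read was 0.996, too near 1 to tell from rounding. Genes with a mean of at least 5 were taken as log2(normalized count + 1), where the pseudocount makes fold changes of low genes too small. R 4.3.3 and limma 3.58.1 gave two-sided moderated tests with a variance trend, fitted on the libraries compared. Adjustment was by Benjamini and Hochberg, and "called" means an adjusted p under 0.05. The Notch panel and Xcl1 were compared by exact permutation over all 126 groupings. Lists were described by counts and medians, with no test.

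The cohorts, gene lists and named genes were chosen with earlier results of these data known. Named were the 10 genes of lowest p per direction without overlap between cohorts, the 5 largest changes with a mean of at least 20, all called genes, up to 4 genes of lowest p per list, the Notch panel, Xcl1, Il1f10, Xist and Nnt; other members of the adipocyte list were named after their values were seen. Where fewer than 10 passed, those next by p are said not to pass. Alternatives were pseudocounts of 0.5 and 5, no filter or a mean of 20, TMM rescaling, quantile normalization, a block for the replicate number, a fit with 4 groups, each library left out, and count tests on whole reads by edgeR 4.0.16 and DESeq2 1.42.0. In simulated counts for the control comparison, with 100 genes changed by a factor of 2 and 100 by 4 of 16099, limma recovered 41 and 80 with 7 false calls, and edgeR 42 and 82 with 4. No 2 libraries of a cohort were duplicates (chi-square per degree of freedom 15.9 to 100.1). Labels number the samples of each group but do not say that each is a separate animal, so p-values measure the spread between these samples, which may be partly technical.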

Additional observations from a re-analysis of the deposited data

Results flagged for a closer look

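Among 52 groups of values, which are the 16 called genes, the Notch panel and Xcl1 in each cohort, 1 value was far from the rest of its group. Xcl1 was at 16.9 normalized counts in WT_IgG 1, against 11.6 to 12.3 in the other 3 WT_IgG tumors, and its gap to the next tumor was 0.884 of the range. Chance flags about 1 group in 20.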

How the results depend on the processing

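The 15 genes higher in WT_IgG tumors and Fuca2 kept their sign under every alternative run, but 138 of their values did not pass the threshold there. Of 19 alternatives, Cavin2 passed in 15, Fosb in 9 and Fuca2 in 4. The count of 16 calls between the control cohorts stayed within 1.5 times under a pseudocount of 5 (16), no filter (11), a mean of 20 (15), TMM (11), quantile normalization (17) and edgeR (11). It was 7 with a pseudocount of 0.5, 742 with DESeq2 and 0 in a fit of all 19 libraries with 4 groups, where 2782 genes had an unadjusted p under 0.05. With 1 library left out it ranged from 0 to 45. The replicate number as a block gave 36 calls, 12 of them among the 16; same-numbered libraries correlated at only 0.048 to 0.083 after the cohort means were removed, so the numbers do not pair tumors. With IL-38 inhibited, the 89 calls became 157 with a pseudocount of 5, 32 without a filter, 183 at a mean of 20, 40 with edgeR, 1378 with DESeq2, 1063 in the fit with 4 groups, 0 with the replicate block (2926 at an unadjusted p under 0.05; correlations −0.102 to 0.052), and 2 to 649 with 1 library left out. The adipocyte median was 2.01 with a pseudocount of 5 and 2.01 to 2.90 over all alternatives. With only genes at a mean of at least 20, the median of neutrophil genes was −0.34 and that of cytotoxic lymphocytes 0.27. With quantile normalization it was −0.14 for macrophages and −0.26 for lipid-associated macrophages. Genes of the Notch panel with small differences changed sign. With the replicate block Notch1 was at −0.01, and with quantile normalization Notch4 at −0.08; with 1 library left out, Dll1 was −0.03 to 0.37, Notch1 −0.01 to 0.17, Notch2 −0.20 to 0.13 (0.03 without WT_IgG 2), Notch3 −0.30 to 0.08, and Notch4 −0.16 to 0.24 (−0.10 without IgG 1 and 0.00 without IgG 3). The cause of these shifts was not tested. In simulated data with 5 against 4 libraries, 41 of 100 changes by a factor of 2 were found by limma. Changes of this size can thus be missed at this number of libraries. The simulation held no library that stood apart as IgG 5 did, so its recovery may not carry over to these tumors.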

Other observations

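Several lists not described above also differed in their medians between the control cohorts, with 0 genes called in limma. At an unadjusted p under 0.05, 9.49% of all genes were higher and 9.11% lower. Of 19 circadian clock genes, 6 were higher and 2 lower at an unadjusted p under 0.05 (median 0.35, which was 0.20 without IgG 5 and 0.15 without WT_IgG 4). Nr1d2, a repressor of the clock, was at 482, 587, 559, 498 and 367 normalized counts in IgG and at 743, 878, 743 and 1162 in WT_IgG tumors, and Cry1, which represses CLOCK and BMAL1, at 185 to 243 and 92.7 to 182. The cohorts did not overlap in either gene. Of 32 cholesterol and fatty acid synthesis genes, 10 were lower and 1 higher at an unadjusted p under 0.05 (median −0.28, and −0.17 without IgG 5). Dhcr7, which makes cholesterol in the last step, was at 634 to 1500 in IgG and 433 to 594 in WT_IgG tumors. The stress factor Nupr1 was at 372 to 1074 and 1285 to 2103 (log2 fold change 1.15), whereas Inhba, the activin subunit, was at 329 to 550 and 193 to 293 (−0.85).

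The labels give no substrain and the study used female mice. Nnt, which is truncated in the C57BL/6J substrain, was at 227 to 376 normalized counts in IgG tumors. In WT_IgG 1 to 4 it was at 265, 334, 577 and 320, with overlap. With IL-38 inhibited, Nnt was at 259 to 379 in anti-IL-38 and 482 to 624 in KO_IgG tumors, without overlap. It was called there in limma, with a log2 fold change of 0.91. A part of the substrain in that comparison was not tested. Xist, expressed from the inactive X chromosome of females, was at 5918 to 10200 and 8533 to 17406. The Y-linked genes also had reads in all 9 libraries, Ddx3y at 190 to 329 and 110 to 209 and Eif2s3y at 22.3 to 82.0 and 24.5 to 77.3 normalized counts. The source of these Y-linked reads was not tested.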
